A study of Mus musculus with 8 samples.

Results

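Very wide ATAC-seq peaks were taken as all autosomal peaks of at least 1800 bases from first to last base. There were 1060 of them among the 126871 peaks of the study, which is 0.835% of all peaks and 0.858% of the 123493 autosomal ones. ATAC-seq uses the Tn5 transposase to cut and tag open chromatin, so that the reads counted over a peak follow how accessible that stretch is. The study used the Omni-ATAC form of the assay on hematopoietic stem cells (HSCs) from the bone marrow of C57BL/6 mice. Cells were sorted as LSK CD150+ CD48-, that is lineage-negative, Sca-1+ and Kit+ cells gated further on 2 SLAM-family surface proteins. There were 4 old and 4 young libraries, sorted in the same way and of the same strain, and the comparison asked how chromatin accessibility of HSCs differs with age. The labels give neither the ages nor the number of mice behind a library, so age and other differences between the old and the young libraries cannot be told apart. The p-values measure the spread between libraries, which may be technical. The sort could not be checked against marker loci, because no annotation of mm9, the mouse build of the peak coordinates, was used here. For the same reason peaks are named by their mm9 coordinates, with no gene.

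Most accessible sites in a mammalian genome are short, about as long as the gap left by a displaced nucleosome. A wide peak forms where openness runs across several neighbouring sites, as it does at active CpG-island promoters, at divergent promoters and in dense clusters of enhancers. It can also form where neighbouring peaks are joined when calls from several libraries are combined. HSCs rest for most of their life, renew themselves and supply all blood lineages. In aged marrow the phenotypic HSC pool is known to expand and its output to lean towards myeloid and platelet cells.

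The wide peaks were between 1800 and 3841 bases long, with a median of 1979.5, against a median of 409 bases for all autosomal peaks. They were also strong. Their median level was 56.8 CPM (counts scaled to a common library size with TMM, mean of the 8 libraries), against 6.32 for the tested narrower autosomal peaks. Per kilobase the medians were 27.6 and 11.6 CPM, so their level was higher for their length too. A median wide peak held 2021 reads over the 8 libraries, from library totals of 4200905 to 5129684, and a median narrower tested peak 225. The median standard error of the log2 fold change was 0.08 for wide and 0.24 for narrower tested peaks, and the median biological coefficient of variation 0.0632 for wide and 0.148 for all tested peaks. All 1060 passed the filter on low counts, so no wide peak was left out of the test. The 26 peaks of this width on the X chromosome fall outside the rule, and 2 of them were called, both higher in old libraries. Widths are those of the deposited peak set, and how far the calls in either group set them was not tested.

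Old and young libraries were compared with edgeR's quasi-likelihood test on the whole table, and peaks with an adjusted p below 0.05 (Benjamini-Hochberg, over all 73164 tested peaks) were called. Fold changes are given as log2 of old over young, so that positive values are higher in old libraries. Among the wide peaks 263 were called higher in old HSCs and 18 lower. Thus 26.5% were called, and 93.6% of the called ones were gains. Over all tested peaks 20.5% were called, 10.05% higher and 10.4% lower. The wide peaks had 24.8% higher and 1.70% lower. The share called in either direction was only a little above the background. The direction differed far more. The median log2 fold change was 0.12 over the wide peaks and 0.01 over all tested peaks, and 80.1% of wide peaks had a positive value against 51.0% of all tested.

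Most of these differences were small. The median called gain was 0.35 on the log2 scale, a 1.28-fold difference, against 0.88, or 1.84-fold, for called gains among all tested peaks. Of the 263 gains 189 were over 1.2-fold, 68 over 1.5-fold, 21 over 2-fold and 1 over 3-fold. The median called loss was -0.32, and 14 of the 18 losses were over 1.2-fold, 2 over 1.5-fold and none over 2-fold. These counts are out of 1060 wide peaks. Of all 73164 tested peaks 7007 were called higher by over 1.2-fold, 5313 by over 1.5-fold, 3072 by over 2-fold and 1206 by over 3-fold. Called lower by the same folds were 7561, 6374, 3701 and 1009. Among the 779 wide peaks that were not called, the 95% interval of the fold change lay within 1.5-fold in either direction for 750 and within 1.2-fold for 379.

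The split between gains and losses depended on how libraries were scaled. When the scaling followed peak strength (loess offsets, which set the typical change at each level to 0), 166 wide peaks were called higher and 44 lower, or 79.0% gains, with a median log2 fold change of 0.05. The 166 were all among the 263, and the 18 losses were all among the 44. No wide peak called in one direction was called in the other by any of the alternative fits.

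The share of reads gives the same comparison without a test. Wide peaks held 6.56%, 6.57%, 6.51% and 6.34% of the counts in old replicates 1 to 4, and 5.97%, 6.17%, 6.11% and 5.93% in young replicates 1 to 4. The means were 6.49% ± 0.108 and 6.05% ± 0.117 (SD, n = 4 each), a ratio of 1.07. The groups did not overlap, and old replicate 4 lay nearest to the young libraries. At 305 wide peaks (28.8%) the CPM ranges of the 4 old and the 4 young libraries did not overlap, against 21.1% of all tested peaks, and at 285 of the 305 the old range was the higher.

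Old replicate 4 was the old library closest to the young group at most of the called peaks. It was the lowest old library at 179 of the 263 gains and the highest old library at 11 of the 18 losses. Young replicate 2 was the highest young library at 109 of the gains. Without old replicate 4 the counts were 377 higher and 33 lower. Calls rose over the whole table too, to 10997 higher and 11802 lower from 7352 and 7634, so the rise was not particular to wide peaks. What sets that library apart was not tested.

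Direction changed with width well before the threshold of 1800 bases. Of tested autosomal peaks from 200 to under 500 bases, 6.60% were called higher and 10.5% lower. From 1000 to under 1400 bases the shares were 13.2% and 7.46%, and from 1400 to under 1800 bases 17.2% and 3.63%. Above the threshold they were 29.5% and 0.860% from 1800 to under 1900 bases (349 peaks), 20.8% and 2.60% from 1900 to under 2000 (231 peaks), and 30.2% and 3.77% from 2500 to under 3000 (53 peaks). The high share just above 1800 bases came in part from a series of like peaks on chromosome 14, described further on, without which it was 23.9% higher and 0.943% lower (318 peaks). The peaks right at the threshold were too few to tell whether there was a step. Of the 9 wide peaks of 1800 or 1801 bases, 3 were called, all higher, with log2 fold changes of -0.24 to 0.46, and of the 8 peaks of 1798 or 1799 bases just outside, 3 were called, all higher, with -0.33 to 0.53.

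**Figure D1:**
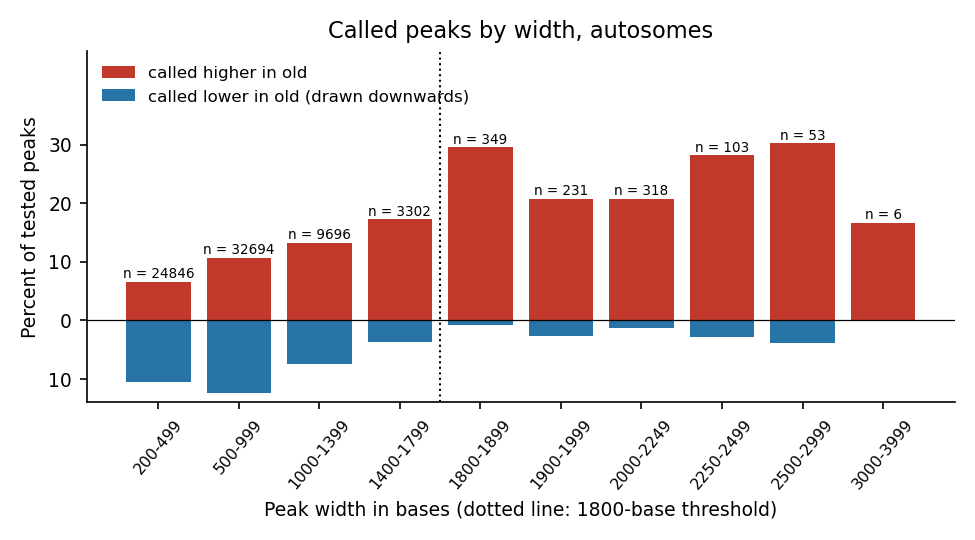
Percent of tested autosomal peaks called higher in old libraries (red, upwards) and lower (blue, downwards) for bands of peak width in bases, with the number of tested peaks over each bar and a dotted line at the 1800-base threshold. Calls higher in old rise from 6.60% in the narrowest band to 17.2% just below the threshold, while calls lower fall from 10.5% to 3.63%. Beyond the threshold the bars vary with no steady trend, and the last one stands for 6 peaks.

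Width goes with strength, so wide peaks were set beside narrower autosomal peaks of like mean CPM. The wide peaks were divided into 10 strata of 106 by mean CPM, and tested autosomal peaks under 1800 bases were taken from the same ranges. Averaged over the strata with equal weight, 26.5% of wide and 21.5% of narrower peaks were called, 93.6% and 69.1% of the called ones were gains, and the median log2 fold changes were 0.12 and 0.06. Without regard to strength the narrower peaks had 48.1% gains, so peaks of like strength were closer to the wide ones, and a difference of 24.5 percentage points in the share of gains remained. With 20 strata the narrower peaks had 21.5% called and 69.4% gains. Under loess offsets wide peaks had 79.0% gains and narrower ones 45.4%, and the shares called were 19.8% and 17.6%. These are descriptions, with no test, since single peaks are not replicates of a condition.

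The difference from narrower peaks was largest among the weaker wide peaks, though it did not shrink steadily with strength. In the weakest 2 of the 10 strata, from 5.42 to 31.4 CPM, 84 of 212 wide peaks were called higher and 0 lower, while of 31963 narrower peaks 11.0% were called higher and 12.1% lower. Outside the chromosome 14 series, described further on, 58 of 184 wide peaks of these strata were called higher and 0 lower, with a median log2 fold change of 0.26. Over the same 212 peaks, unadjusted p-values below 0.05 on the lower side numbered 3 in edgeR, and DESeq2 and limma voom also called 0 lower. The narrower peaks of the weakest stratum were weaker on average, with a median of 9.68 CPM against 18.5 for the wide ones. In the finer stratum from 18.6 to 22.9 CPM, where the medians were 20.4 for wide and 20.6 for narrower peaks, 26 of 53 wide peaks were called higher and 0 lower, against 12.0% and 10.6% of 2821 narrower peaks. The median log2 fold changes in that stratum were 0.43 and 0.03. Its wide peaks and gains included members of the chromosome 14 series, and the stratum was not counted without them. In the strongest 5 strata, from 56.8 CPM upwards, the 2 kinds of peak were closer: 21.3% of 530 wide peaks were called higher and 1.89% lower, against 16.0% and 4.72% of 2265 narrower ones, with medians of 0.09 and 0.07.

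**Figure D2:**
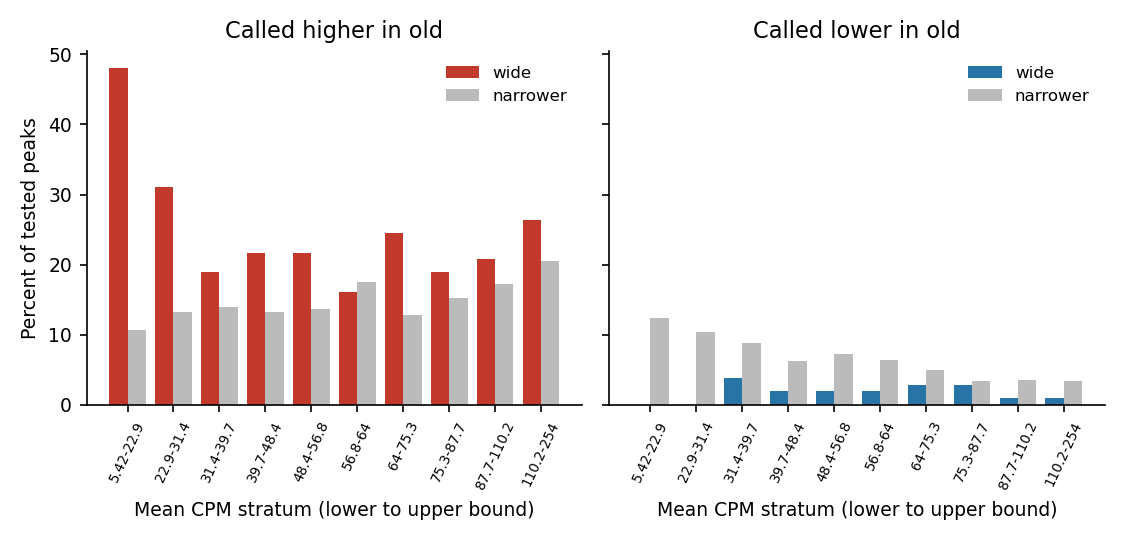
Percent of tested peaks called higher (left) and lower (right) in old libraries in 10 strata of mean CPM, for wide peaks (coloured) and narrower autosomal peaks (grey). In the weakest stratum 48.1% of wide and 10.7% of narrower peaks are called higher, and no wide peak is called lower in the weakest 2 strata. Beyond the weakest 2 strata the coloured and grey bars lie closer together, with no steady trend. From 56.8 to 64.0 CPM the grey bar for higher calls is the taller, and from 64.0 to 75.3 CPM the bars stand at 24.5% for wide and 12.8% for narrower peaks.

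The loess offsets acted differently on the weak and the strong wide peaks. In the weakest 2 strata they left 78 called higher and 0 lower, with a median of 0.27 in place of 0.30. That was 36.8% of the wide peaks called higher, against 10.9% higher and 11.9% lower among narrower ones. In the strongest 5 strata the offsets left 39 called higher and 26 lower, in place of 113 and 10, and the median went from 0.09 to 0.01. Of the wide peaks there 7.36% were then higher and 4.91% lower, against 6.67% and 8.48% of narrower ones. In either direction 12.3% of wide and 15.1% of narrower peaks were called, in place of 23.2% and 20.8%. The gains of the weaker wide peaks were thus present under both scalings, and most of the small gains of the strong ones were not called with loess offsets. Without old replicate 4 the weakest 2 strata had 110 higher and 2 lower, and the strongest 5 had 165 and 15. Of the narrower peaks 15.6% were then higher and 16.8% lower in the weakest 2, against 51.9% and 0.943% of wide ones. In the strongest 5 the shares were 25.7% and 6.05% of narrower and 31.1% and 2.83% of wide peaks.

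Signal density gave the same order. The widths of wide peaks varied little (quartiles of 1871 and 2135 bases), so density ranks them much as CPM does and is not separate evidence. Of the 212 wide peaks with the lowest CPM per kilobase, from 2.94 to 15.6, 83 were called higher and 0 lower by edgeR, with 4 lower at an unadjusted p below 0.05, none called lower by DESeq2 or limma voom and a median of 0.30. Outside the chromosome 14 series these were 57 of 185, with a median of 0.25. Of the 212 densest, from 42.8 to 114 CPM per kilobase, 48 were called higher and 2 lower, or 23.6% called. When narrower peaks were taken by CPM per kilobase in place of CPM, 21.8% of them were called and 53.2% of the called ones were gains, so the difference in the share of gains was larger, at 40.3 points.

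**Figure D3:**
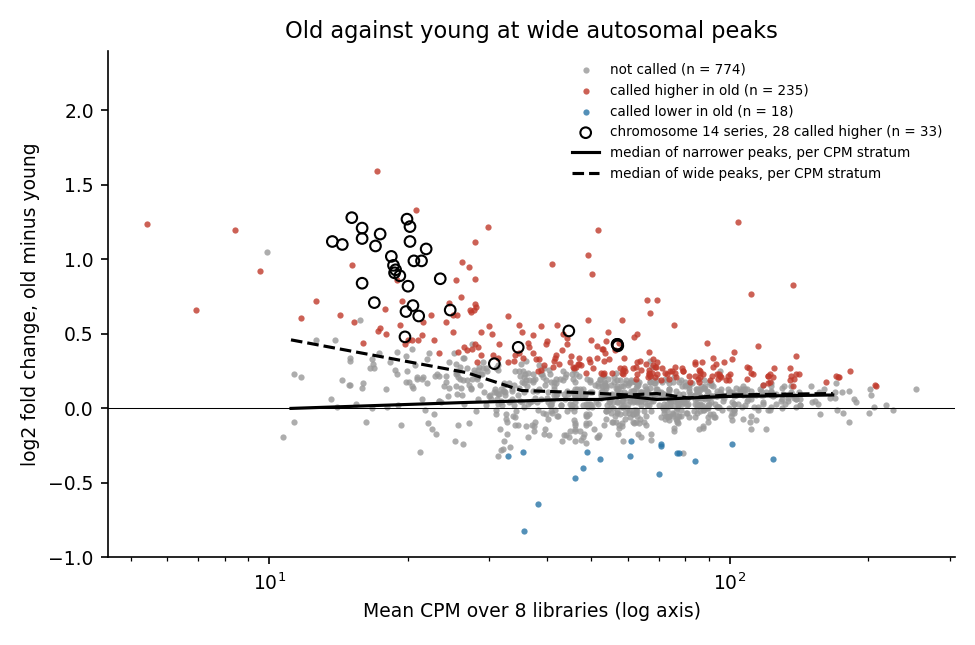
Log2 fold change of old over young (y axis) against mean CPM of the 8 libraries (x axis, log scale) for each wide peak, with called gains in red, called losses in blue, uncalled peaks in grey and the chromosome 14 series as open circles. The dashed line joins the medians of wide peaks and the solid line those of narrower peaks in the 10 strata. The dashed line starts at 0.46 in the weakest stratum and meets the solid line, at about 0.10 and 0.09, in the strongest.

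Gains and losses named by size were, by rule, called peaks whose groups did not overlap, so non-overlap was fixed by that choice. Among single loci the largest gain was at chr15:6823216-6825121, a peak of 1906 bases. Its levels were 27.5, 25.7, 27.4 and 21.9 CPM in old replicates 1 to 4 and 8.16, 6.73, 10.3 and 8.83 in young replicates 1 to 4. The lowest old library had more than 2 times the level of the highest young one. The means were 25.6 ± 2.62 and 8.49 ± 1.46 CPM (SD, n = 4 each), a fitted difference of 1.59 ± 0.15 (SE) on the log2 scale or 3.02-fold (edgeR adjusted p = 1.02e-06). It was the single wide peak called with over 3-fold.

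Among the 10 largest gains the one with the most reads was at chr19:5793627-5795936, 2310 bases long. Old libraries had 141, 150.2, 158 and 137 CPM and young ones 47.6, 67.5, 77.8 and 53.6. All 4 old libraries were far above the young group, whose own values spread more. The means were 146 ± 9.24 and 61.6 ± 13.6 CPM, a log2 fold change of 1.25 ± 0.12 (2.38-fold, adjusted p = 1.16e-04). With 3698 reads over the 8 libraries and 45.0 CPM per kilobase it was denser than the median wide peak, and it lay in peak-rich surroundings, with 80 other peaks within 250000 bases.

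Among wide peaks of at least 2500 bases the largest gain was at chr10:27793769-27796508, 2740 bases. It had 73.6, 74.0, 80.3 and 61.6 CPM in old libraries and 28.9, 35.8, 28.3 and 32.1 in young ones. Both groups were tight. The means were 72.4 ± 7.80 and 31.3 ± 3.45 CPM, and the log2 fold change of 1.2 ± 0.09 (2.30-fold) had an adjusted p of 5.64e-08. Few peaks surrounded it, 7 within 250000 bases, against a median of 45 for wide peaks.

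At chr6:107479439-107481256 (1818 bases) old libraries had 30.3, 33.7, 29.5 and 25.6 CPM and young ones 14.5, 14.1, 11.0 and 7.76. Only 4 other peaks lay within 250000 bases. The log2 fold change was 1.33 ± 0.16, or 2.51-fold, with an adjusted p of 1.25e-05. At chr13:10358813-10360826 (2014 bases, 11 peaks within 250000 bases) the old values were 40, 45.4, 48.9 and 33.1 CPM and the young values 13.1, 23.8, 15.8 and 18.5. The log2 fold change there was 1.22 ± 0.16 (2.33-fold, edgeR adjusted p = 1.14e-04).

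The weakest of these loci was chr1:18047255-18049098, 1844 bases long and, at 2.94 CPM per kilobase, the least dense wide peak of all. It held 192 reads in all. Old libraries had 9.42, 7.57, 7.84 and 5.79 CPM and young ones 2.57, 4.63, 2.50 and 3.02. The closest pair, old replicate 4 and young replicate 2, differed by little more than 1 CPM. Its log2 fold change of 1.24 ± 0.26 (2.36-fold, adjusted p = 0.00201) had the largest error among the 10 largest gains.

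The other 4 of the 10 largest gains, all on chromosome 14, belong to the series described further on. Past those 10, the next gains outside that series, picked after their values were seen, were at chr7:145588560-145590441, chr13:69877429-69879454, chr3:57378825-57380663 and chr8:122905921-122907993. At chr7:145588560-145590441 old libraries had 10.4, 12.8, 14.1 and 9.51 CPM and young ones 6.53, 4.21, 4.0 and 5.60, a log2 fold change of 1.2 ± 0.22. At chr13:69877429-69879454 the means were 38.4 ± 5.36 and 17.5 ± 3.11 CPM, with 1.12 ± 0.13. The tightest of them was chr3:57378825-57380663, with 68.0, 67.7, 61.8 and 66.6 CPM in old and 30.3, 32.2, 31.0 and 35.3 in young libraries. Its log2 fold change was 1.03 ± 0.08 (2.05-fold, adjusted p = 4.90e-08), and here old replicate 4 lay within the other old libraries. The chromosome 8 locus, with 34.8 ± 2.97 and 17.5 ± 1.56 CPM and 0.98 ± 0.11, stood in the most peak-rich surroundings of any wide peak, with 107 others within 250000 bases.

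**Figure D4:**
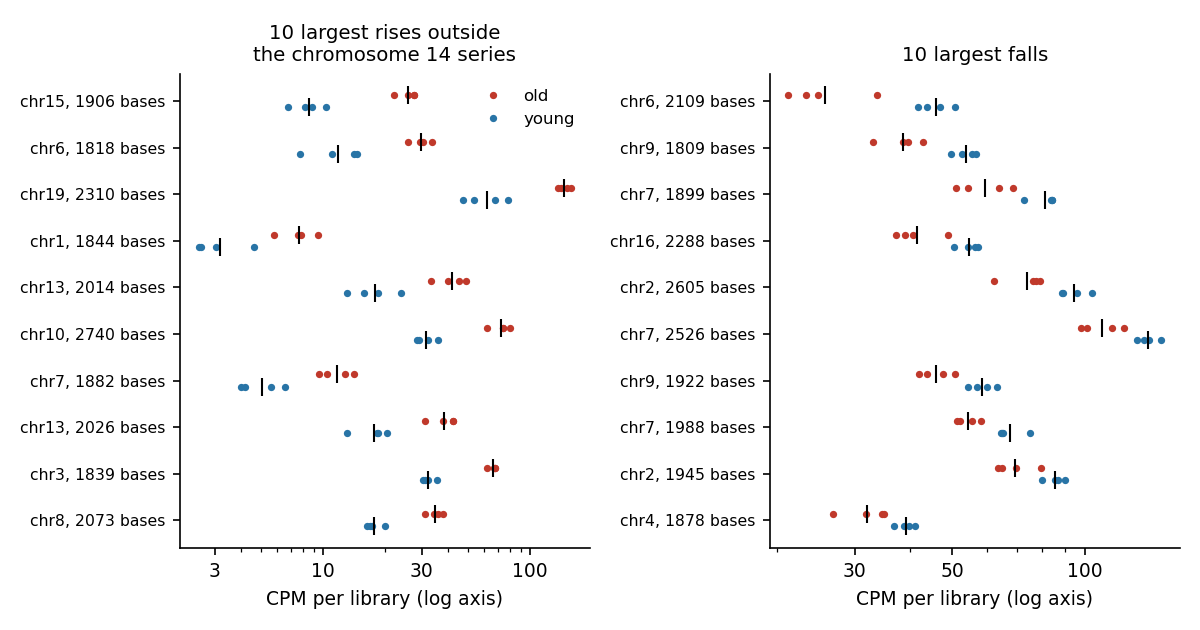
CPM of each library (log axis) at the 10 wide peaks with the largest gains outside the chromosome 14 series (left) and at the 10 with the largest losses (right), among called peaks whose groups do not overlap. Red points are old and blue points young libraries, and the black ticks are group means. At the top left the old libraries lie at 21.9 to 27.5 and the young at 6.73 to 10.3 CPM, while on the right the groups lie closer together.

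Losses were few and smaller. The largest was at chr6:134316071-134318179, 2109 bases long, with 23.2, 24.8, 21.2 and 33.7 CPM in old replicates 1 to 4 and 46.9, 43.8, 41.8 and 50.8 in young ones. Old replicate 4 stood closest to the young group. The means were 25.7 ± 5.51 and 45.8 ± 3.96 CPM, and the log2 fold change was -0.82 ± 0.12, 1.77-fold lower in old libraries (adjusted p = 1.06e-04). The next loss by size, at chr12:60137786-60140068, falls outside the rule for named peaks because old replicate 4 (38.2 CPM) was above young replicate 2 (37.5), and it was picked after its values were seen. Its means were 29.8 ± 6.80 and 47.0 ± 7.29 CPM, with a log2 fold change of -0.64 ± 0.15 (adjusted p = 0.00864).

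At chr9:61184415-61186223 (1809 bases) old libraries had 38.7, 33.0, 39.7 and 42.8 CPM and young ones 52.7, 49.5, 55.5 and 56.7, and the log2 fold change was -0.47 ± 0.09 (adjusted p = 7.17e-04). At chr7:142788718-142790616 the old values were 50.9, 63.7, 54.2 and 68.6 and the young 84.0, 83.8, 84.0 and 72.6. Old replicate 4 and young replicate 4 were the closest pair there, and the log2 fold change was -0.44 ± 0.09. Long peaks held 2 of the losses. At chr2:13494808-13497412 (2605 bases) the means were 73.7 ± 7.86 and 94.4 ± 6.96 CPM, with -0.35 ± 0.08, and at chr7:90014046-90016571 (2526 bases) they were 109 ± 12.0 and 139 ± 7.54, with -0.34 ± 0.07.

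The other losses named by the rule lay between -0.40 and -0.29 on the log2 scale, at chr16:91545737-91548024, chr9:16019209-16021130, chr7:106683249-106685236, chr2:154394620-154396564 and chr4:155265305-155267182. The last of these, with 32.0 ± 3.74 and 39.2 ± 1.86 CPM and an adjusted p of 0.0360, was no longer called in 9 of the 19 alternatives, among them the fits without old replicate 2 or 3 and without young replicate 2, 3 or 4. Chromosome 7 held 5 of the 18 losses beside 8 gains. The called losses were slightly denser than the called gains, with medians of 30.7 and 24.0 CPM per kilobase, and had more peaks around them, with medians of 57 and 38 within 250000 bases. Over all tested peaks the order of neighbours was the same, with medians of 48 for called losses and 40 for called gains.

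Of the 5 widest peaks 1 was called, and of the 5 densest 1, while 26.5% of all wide peaks were called. The widest of all, chr18:73849269-73853109 with 3841 bases, was also uneven between libraries, with 44.6, 63.1, 117 and 71.9 CPM in old and 64.8, 37.9, 69.8 and 66.8 in young ones. The groups overlapped in part, with 2 old libraries above every young one and young replicate 2 below every old one, and the log2 fold change of 0.32 ± 0.34 had a 95% interval from -0.50 to 1.14 (adjusted p = 0.577). The second widest, chr5:43623533-43626783 with 3251 bases, had 150.2, 155, 153 and 130.2 CPM in old and 125, 121, 125 and 117 in young libraries. It was called higher by a small amount, 0.27 ± 0.06 (adjusted p = 0.00311), with no overlap.

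The peak with the most reads, 9025, was the third widest, chr12:113182056-113185224. Its old libraries had 274, 265, 256 and 266 CPM and its young ones 219, 248, 229 and 272. Young replicate 4 lay among the old values, and the difference of 0.13 ± 0.06 was not called (adjusted p = 0.108). The remaining pair of the 5 widest, chr15:85499361-85502516 and chr3:58218241-58221323, had log2 fold changes of -0.03 ± 0.08 and 0.03 ± 0.06.

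Among the 5 densest, at chr16:38088128-38090118, the densest with 114 CPM per kilobase, old libraries had 236, 228, 217 and 221 CPM and young ones 225, 223, 239 and 219.9. The log2 fold change was -0.01 ± 0.05, with a 95% interval of -0.11 to 0.09, so with TMM scaling a difference of either sign was bounded well below 1.2-fold. With loess offsets it was -0.11, so the bound depends on the scaling. At chr4:45024494-45026352, with 111 CPM per kilobase, the log2 fold change with TMM scaling was 0.01 ± 0.05. The one call was chr11:97048187-97050182, with means of 218 ± 11.1 and 195 ± 3.44 CPM and a log2 fold change of 0.16 ± 0.05 (adjusted p = 0.0261), and it was lost in 9 of the 19 alternatives, among them the loess offsets and the fits without old replicate 1 or 3 and without young replicate 1 or 2. Among the wide peaks of smallest error, the values nearest to no difference included chr3:136332171-136334808, with 129.8 ± 5.62 and 129.8 ± 5.74 CPM and an interval of -0.12 to 0.11, and chr10:114821141-114823050, with 123 ± 3.89 and 123 ± 3.13 CPM and an interval of -0.11 to 0.12.

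A part of the gains came from 1 stretch of the genome. From chr14:3048577 to chr14:8491787 there were 33 wide peaks, set apart after their values were seen, by their place on chromosome 14 below position 9000000. They had nearly the same width, 1800 to 1922 bases with a median of 1853, and their starts were between 41758 and 615323 bases apart, with a median of 129776. Other peaks were sparse there, with a median of 9 within 250000 bases. They were weak for wide peaks, with a median of 19.9 CPM and 10.8 CPM per kilobase. Called higher were 28 of the 33 and called lower 0, with a median log2 fold change of 0.91 and a range of 0.30 to 1.28. No member was lower at an unadjusted p below 0.05 in edgeR, DESeq2 or limma voom.

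Their summed level was 923, 1119.5, 1107 and 819 CPM in old replicates 1 to 4 and 368, 691, 670.1 and 625 in young replicates 1 to 4. Every old library was above every young one, and young replicate 1 stood well below the other young libraries. It was the lowest of all 8 libraries at all 33 peaks. The means were 992 ± 146 and 588 ± 149.8 CPM, a ratio of 1.69. Without young replicate 1 the ratio was 1.5, with 27 peaks called higher and a median of 0.74.

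Single members moved together. At chr14:3677039-3678894 old libraries had 20.6, 24.0, 21.2 and 19.4 CPM and young ones 7.46, 8.84, 10.5 and 8.40, the largest gain of the series (1.28 ± 0.16, adjusted p = 1.23e-05). At chr14:5490691-5492516 the values were 25.7, 31.3, 34.6 and 20.9 in old and 7.0, 13.7, 12.3 and 13.4 in young libraries (1.27 ± 0.19). The log2 fold changes were 1.22 ± 0.20 at chr14:6893031-6894892 and 1.21 ± 0.21 at chr14:3437686-3439527.

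Of the 4 members above 40 CPM, 3 had almost the same profile over the libraries and were not called. At chr14:5659112-5660973 it was 59.6, 72.4, 75.4 and 54.6 CPM in old and 25.2, 61.7, 60.0 and 47.4 in young libraries. At chr14:5943745-5945627 it was 61.1, 69.8, 72.4 and 58.1, and 25.0, 61.2, 60.5 and 48.9. At chr14:6747294-6749160 it was 58.6, 66.3, 75.9 and 60.4, and 23.1, 58.7, 66.5 and 45.7. Their log2 fold changes were 0.43 ± 0.27, 0.42 ± 0.26 and 0.43 ± 0.29, with young replicate 1 far below the rest at each.

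**Figure D5:**
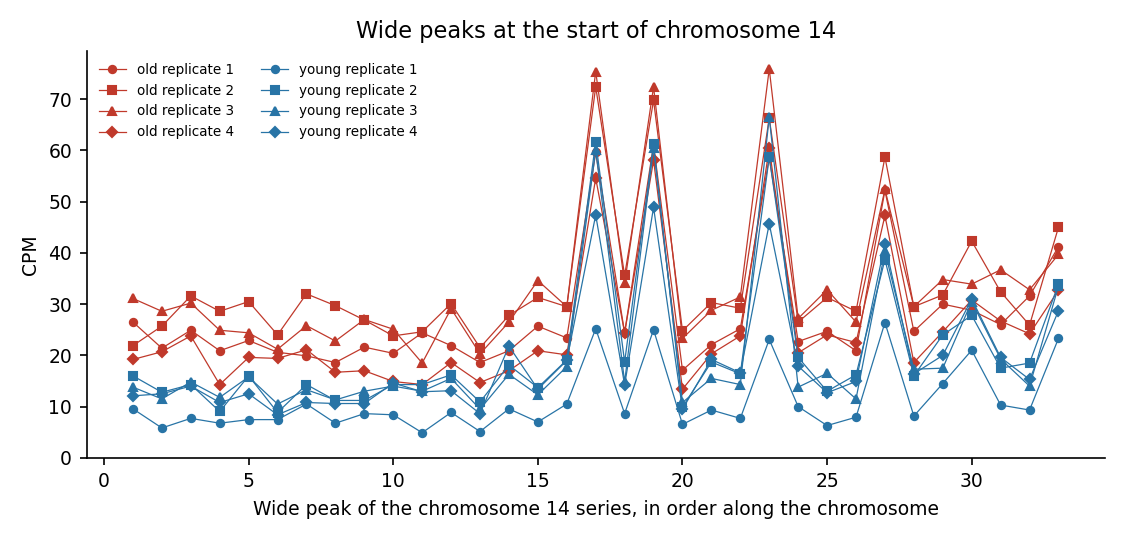
CPM in each of the 8 libraries at the 33 wide peaks of the chromosome 14 series, in their order along the chromosome, with old libraries in red and young in blue. Young replicate 1 is the lowest line at every peak. Apart from 4 members above 40 CPM, the medians over the peaks are 20.3 to 29.5 CPM in old and 8.40 to 16.0 in young libraries.

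Peaks so alike in width and level could be near-identical copies that share reads, in which case their counts are not independent. No mm9 sequence was used here, so this was not tested, and the calls of the series are uncertain for that reason. Narrower peaks in the same stretch leaned less to one side, with 20 of 81 tested called higher and 5 lower and a median log2 fold change of 0.09. The series held 25 of the 106 wide peaks of the weakest CPM stratum. Without it 235 of 1027 wide peaks were called higher and 18 lower, 24.6% called with a median of 0.11, and in the weakest stratum, then from 5.42 to 25.4 CPM, 32 of 103 were called higher and 0 lower, with a median of 0.27. Beside narrower peaks of like CPM from outside the stretch, the gains were 92.9% against 69.5%. Outside the series 42 gains were over 1.5-fold and 9 over 2-fold.

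The surroundings of a wide peak went with its change, which is not particular to wide peaks. Over all tested peaks the median number of other peaks within 250000 bases was 40 for called gains and 48 for called losses. Narrower peaks were not divided by their number of neighbours. Among the 216 wide peaks with the fewest other peaks within 250000 bases, 1 to 28 of them, 94 were called higher and 3 lower, and the median log2 fold change was 0.22. Without the chromosome 14 series these were 66 and 3 of 183, with a median of 0.19. In the 4 bins of like size with more neighbours, from 29 up to 107, the share called was 19.1% to 24.0%, and the medians lay between 0.08 and 0.13. Outside the series the peaks in sparse surroundings had a median level of 51.8 CPM, and the other 4 bins 53.3 to 63.6. The bin with the most neighbours, 63 to 107, had the 53.3 CPM and a median log2 fold change of 0.10. What part signal level has in the difference was not tested.

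Narrower peaks close to called gains leaned towards gains. Over all narrower tested autosomal peaks 9.90% were called higher and 10.7% lower. Within 10000 bases of the 263 gains lay 276 narrower tested peaks, and 14.5% of them were called higher and 3.62% lower, with a median of 0.10. Around the 779 uncalled wide peaks there were 923, of which 5.63% were called higher and 11.5% lower, with a median of -0.04. Around the 18 losses there were 27, with 4 higher, 6 lower and a median of -0.26. These 27 lay near 12 of the losses, and their share called higher, 14.8%, was like that around gains. Within 50000 bases the difference was smaller: 11.1% higher and 8.80% lower around gains, against 6.88% and 11.1% around uncalled wide peaks. No called peak of the chromosome 14 series had a narrower tested peak within 10000 bases.

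Across chromosomes the share of peaks that were wide ran from 0.572% on chromosome 4 to 1.30% on chromosome 14, where 33 of the 69 belonged to the series. On the rest of chromosome 14, 9 of 36 wide peaks were called, all higher. Chromosome 11 held the most, 82. Most wide peaks stood alone: when those starting within 50000 bases of each other were joined, 993 were single, 29 groups held 2 and 3 groups held 3.

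The 3 groups of 3 behaved differently. In chr2:17947587-17987507 the log2 fold changes lay between -0.04 and 0.06 and were not called. In chr18:35989673-36080234 the first was called higher (0.32 ± 0.09, adjusted p = 0.0179) and the other values went down to 0.02. In chr19:46378629-46433146 the peak at chr19:46412742-46414746 was called higher (0.28 ± 0.07, adjusted p = 0.00805), and the other values were at or above 0.04.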

How the data were processed

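The authors deposited raw counts of reads in each peak for 4 old and 4 young libraries, over 1 peak set that all libraries share, in mm9. The submitters' processing notes list Trim Galore, FastQC, Bowtie2, SAMtools, Picard and MACS2, with no versions. The merging of peaks, the counting program and any shift of reads to the transposase cut site were not given in the sources used here.

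Counts were kept with edgeR's filterByExpr (minimum count 10, minimum total 15), which left 73164 of 126871 peaks with 94.2% of the counts. They were scaled with TMM and tested with edgeR 4.0.16 (glmQLFit, robust, and glmQLFTest, group as the only term) in R 4.3.3, on the whole table. The common biological coefficient of variation was 0.114. Standard errors are the log2 fold change over the root of the F statistic. CPM values were computed here with the same scaling. Calls use an adjusted p below 0.05. DESeq2 1.42.0, limma 3.58.1 (voom, loess offsets) and the other alternatives are given in the closing section.

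Peaks named were, in each direction, the 10 called wide peaks of largest fitted change whose groups did not overlap in CPM, the 5 widest, the 5 of highest CPM per kilobase, and the 5 nearest to 0 among the 100 of smallest standard error. The 3 groups of wide peaks with the most members were named too. The wide peaks and these lists were chosen with earlier results of these data known. Replicate numbers in the titles were not taken as pairs.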

Additional observations from a re-analysis of the deposited data

Results flagged for a closer look

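At 5 of the named wide peaks 1 library stood far from the other 3 of its group, by a gap that took up most of the group's range. Such a gap was looked for in 80 groups of 4 libraries, and chance gives about 1 in 20, or 4.0 of them. At chr7:142788718-142790616 young replicate 4 had 72.6 CPM, the others 83.8 to 84.0. At chr2:13494808-13497412 old replicate 3 had 62.0 CPM, the others 76.3 to 79.1. At chr7:106683249-106685236 young replicate 4 had 75.0 CPM, the others 64.6 to 65.2. At chr18:73849269-73853109, the widest peak, young replicate 2 had 37.9 CPM, the others 64.8 to 69.8. At chr3:136332171-136334808, one of the steadiest, young replicate 1 had 121 CPM, the others 132 to 133.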

How the results depend on the processing

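Gains outnumbered losses among wide peaks in every alternative fit, but their number and the gap to narrower peaks of like CPM (main values: 5.05 points in the share called and 24.5 in the share of gains) moved. Loess offsets gave 166 higher and 44 lower, a median of 0.05 and gaps of 2.21 and 33.7 points, and without the chromosome 14 series 138, 44, 0.05, 0.369 and 30.6, so that at like CPM the shares called then hardly differed. Total count scaling gave a median of 0.09 and a gap in gains of 31.9. No count filter gave a median of 0.16 and gaps of 7.77 and 17.7, and a mean count of at least 50 gave 30 lower, a median of 0.07 and a gap in gains of 34.4. A minimum fold of 1.5 left 23 higher and 0 lower in edgeR's glmTreat (1 lower at an unadjusted p below 0.05), with gaps of 1.41 and 37.5, and an adjusted p below 0.01 left 125 and 10, both because they are stricter. A width of at least 1500 bases (3152 peaks) gave 650 higher and 88 lower with a gap in calls of 2.06, and one of at least 2500 (59 peaks) gave 17 and 2 with gaps of 10.5 and 9.19. Strata of CPM per kilobase gave a gap in gains of 40.3. Leaving out 1 library gave 196 to 377 higher, 11 to 33 lower, medians of 0.11 to 0.14, gaps of 4.89 to 6.68 and 19.7 to 26.2, and a difference in the share of counts of 0.408 to 0.500 points. Lower calls were 11 without old replicate 3 and 33 without old replicate 4, and the latter without the chromosome 14 series gave 33 lower and a gap in gains of 18.5. DESeq2's test called 189 higher and 14 lower and limma voom 268 and 19. With the replicate number as a block 284 were higher and 21 lower, and the deviations of same-numbered libraries from their group means correlated at -0.014, 0.0736, 0.0495 and 0.179, with 2 of the 4 old libraries closest to the young library of its own number. Other settings kept the counts within 1.5 times. The alternatives without the chromosome 14 series were chosen after seeing the data. Except where a setting is stricter or tests fewer peaks, the cause was not tested. Of 26 named peaks that were called, 13 were called in every alternative that tested them (1 of the 13 had no value at a mean count of at least 50), and none of the 26 changed direction. Depth limits the weakest members: the least dense had 192 reads in all.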
